A study of Homo sapiens with 3 samples.

Results

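The Sprouty and SPRED feedback inhibitors were followed across 3 expression microarrays of human fibroblasts. They were taken as every probe set whose gene symbol in the platform annotation was exactly SPRY1, SPRY2, SPRY4, SPRED1, SPRED2 or SPRED3. This gave 11 probe sets of 6 genes, among 54613 probe sets and 19775 named genes on the array. SPRY1 had 2 probe sets, SPRED1 and SPRED2 had 3 each, and SPRY2, SPRY4 and SPRED3 had 1 each. All 6 genes exceeded the floor of 45.5 signal units, the pooled median of the arrays, on at least 1 array, as did 13466 genes in all, which are called measured below.

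The cells were IMR-90 ER:Ras, a derivative of the IMR-90 line of normal human lung fibroblasts. The name denotes an inducible Ras protein, a fusion of Ras with the ligand-binding region of the estrogen receptor, which becomes active when 4-hydroxytamoxifen (4-OHT) is added. Growing cells had no treatment. Cells in oncogene-induced senescence (OIS) had been kept in 100 nM 4-OHT for 6 days, and cells in replicative senescence (RS) had been passaged repeatedly for 10 weeks. All 3 cultures are labelled as the same ER:Ras line, so the growing and RS cells carry the construct as well. The labels do not give the promoter that drives it, a vehicle control or the passage number of the growing and OIS cultures. The effect of Ras activity therefore cannot be told apart from that of 4-OHT itself. Each condition had 1 array and no replicate, so conditions could not be tested against each other, and the small number of arrays limits precision throughout.

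Sprouty and SPRED proteins restrain signaling from growth factor receptors through Ras, RAF, MEK and ERK. Sprouty genes are induced by ERK signaling in many cell types, which makes them classical negative feedback genes, and their proteins bind adaptors and RAF at the membrane. SPRED proteins share the cysteine-rich Sprouty domain and add an EVH1 domain, through which SPRED1 brings neurofibromin, a Ras GTPase-activating protein, to the membrane. In fibroblasts this pathway carries the response to serum growth factors, and activated Ras drives it in the ER:Ras system.

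Promoter sequences are shown first for the 4 members that were at least 2-fold higher in OIS than in growing cells, SPRY1, SPRY2, SPRY4 and SPRED2. Each is the 250 bases before the first transcription start that the RefSeq-derived table lists for the gene (build GRCh38.p14), read 5′ to 3′ on the gene's strand. Capitals mark matches, on either strand, to CCGGAA (the core bound by ETS factors), TGACG (part of the CREB site) or GGGCGG (the GC box). SPRY1 lies at chr4:123396545-123396794 (+), SPRY2 at chr13:80341127-80341376 (-), SPRY4 at chr5:142324248-142324497 (-) and SPRED2 at chr2:65432600-65432849 (-).
SPRY1: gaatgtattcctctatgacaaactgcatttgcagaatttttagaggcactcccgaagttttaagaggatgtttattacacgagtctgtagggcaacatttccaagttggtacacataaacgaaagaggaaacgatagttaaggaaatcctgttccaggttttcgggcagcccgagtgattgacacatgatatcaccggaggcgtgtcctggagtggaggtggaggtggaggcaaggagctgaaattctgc
SPRY2: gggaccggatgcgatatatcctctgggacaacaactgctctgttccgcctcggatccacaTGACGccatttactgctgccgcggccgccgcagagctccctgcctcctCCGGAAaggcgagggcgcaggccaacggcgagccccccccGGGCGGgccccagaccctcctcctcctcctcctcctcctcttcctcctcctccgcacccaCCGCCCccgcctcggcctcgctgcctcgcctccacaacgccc
SPRY4: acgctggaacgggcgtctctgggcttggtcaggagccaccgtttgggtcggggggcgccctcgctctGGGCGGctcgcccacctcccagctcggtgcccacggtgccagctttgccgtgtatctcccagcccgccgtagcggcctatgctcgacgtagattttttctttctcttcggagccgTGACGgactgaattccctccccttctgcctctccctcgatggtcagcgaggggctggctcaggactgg
SPRED2: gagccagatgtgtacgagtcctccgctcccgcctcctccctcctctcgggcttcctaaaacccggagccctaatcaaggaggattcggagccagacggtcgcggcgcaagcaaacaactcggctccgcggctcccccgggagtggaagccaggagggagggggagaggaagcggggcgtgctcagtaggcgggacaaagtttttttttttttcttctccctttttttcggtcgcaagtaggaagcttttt

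The SPRY2 window held CCGGAA at bases -142 to -137 from the start, TGACG at bases -190 to -186, and GGGCGG at 2 places. The SPRY4 window held TGACG at bases -68 to -64 and GGGCGG at bases -183 to -178. These windows of SPRY1 and SPRED2 held none of the motifs searched, which says only that these letters are not in them. The table lists 11 windows for the 6 genes, since some have several starts. Over all 11, CCGGAA was in 2, against 14.5% of the 35116 windows of this length in the table. TGACG was likewise in 2 of 11 (21.2% of all windows) and GGGCGG in 5 of 11 (42.6%). TGANTCA, the AP-1 site, was in 1 of 11, a SPRED3 window (6.57% of all windows), and the CArG box bound by SRF in 0 of 11 (1.16%). The second SPRY1 start had CCGGAA at bases -67 to -62. The matches describe the sequence only, and the arrays do not measure binding to it.

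The OIS array gave higher signals than the growing array for most members. SPRY4, SPRY1, SPRY2 and SPRED2 were 4.17-fold, 3.02-fold, 2.63-fold and 2.23-fold higher than in growing cells, whereas SPRED1 and SPRED3 were 1.42-fold and 1.12-fold higher. Thus 4 of 6 members were at least 2-fold higher and 0 lower. The corresponding shares of all measured genes were 4.92% higher and 6.63% lower. In RS 2 of 6 members, SPRY4 at 2.91-fold and SPRY2 at 2.02-fold, were at least 2-fold higher than in growing cells, and 0 were lower. In that comparison 3.72% of measured genes were at least 2-fold higher and 5.58% lower. The median log2 ratio of the 6 genes over growing cells was 1.27 in OIS and 0.35 in RS, beside 0.00 over all measured genes in each. Both comparisons use the same growing array. In a bulk culture, more cells that express a gene and more mRNA per cell cannot be told apart.

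**Figure D1:**
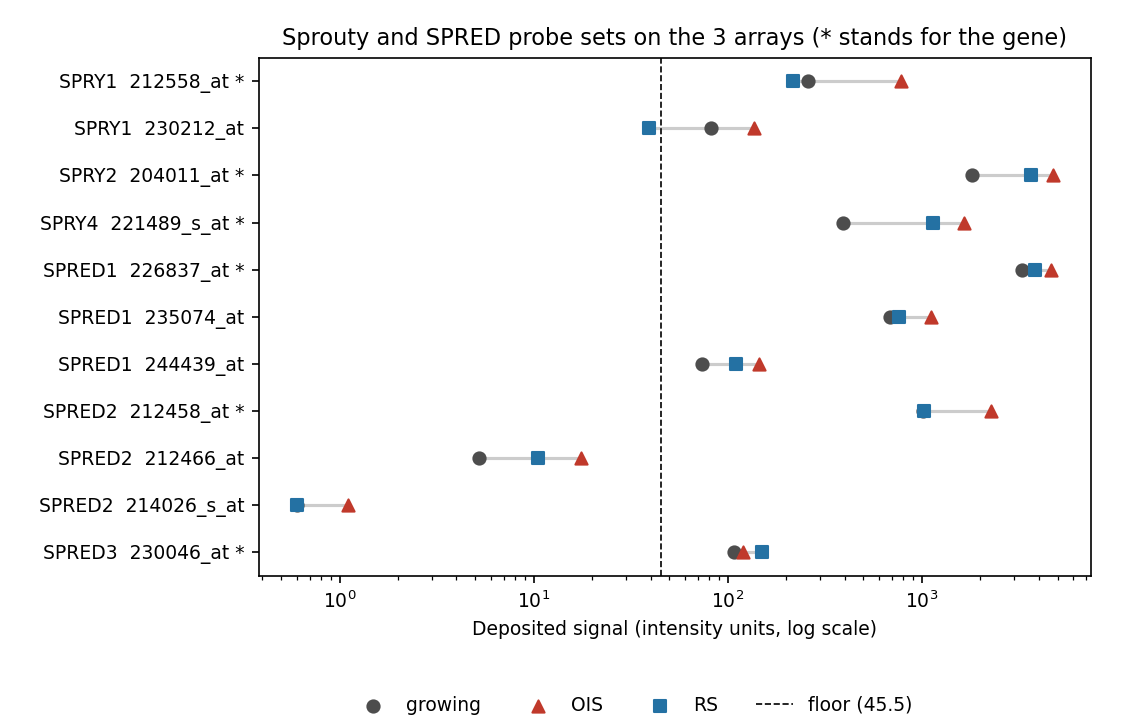
Deposited signal (horizontal, log scale, intensity units) of each Sprouty and SPRED probe set on the growing, OIS and RS arrays, 1 array each, with the floor of 45.5 as a dashed line and an asterisk at the probe set that stands for its gene. The OIS array is highest for SPRY1, SPRY2, SPRY4, SPRED1 and the bright SPRED2 probe set, SPRED3 is highest on the RS array, and 2 SPRED2 probe sets are below the floor on all 3 arrays (their growing and RS points overlap for 1 of them, as they do for the bright SPRED2 probe set).

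The only measure of error came from genes read by more than 1 probe set. Over 6759 genes with 2 probe sets above the floor, the SD of a log2 ratio between probe sets of a gene was 0.36 in the comparison of OIS with growing cells, 0.33 in that of RS with growing cells and 0.37 between OIS and RS. This covers probe error and not differences between cultures, and a gap is called small below when it is under that SD.

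SPRY2 and SPRY4, which can inhibit receptor-driven ERK signaling, were higher in both senescent cultures. The SPRY4 signal (probe set 221489_s_at) was 393.7 in growing cells, 1640 in OIS cells and 1144 in RS cells. Its log2 ratio of 2.06 for OIS over growing cells was above 98.7% of measured genes, and that of 1.54 for RS was above 98.8%. The SPRY2 signal (204011_at) was 1811 units on the growing array, 4762 in OIS and 3658 in RS. Its log2 ratios were 1.39 for OIS and 1.01 for RS over growing cells, above 97.2% and 96.4% of measured genes. In these genes the order was OIS, RS, then growing. RS lay closer to OIS, with SPRY4 1.43-fold and SPRY2 1.30-fold higher in OIS than in RS, log2 gaps of 0.52 and 0.38 against the probe SD of 0.37. The SPRY2 value in RS was only just past 2-fold. Each of these genes rests on 1 probe set, and that of SPRY4 has the _s_at ending of probe sets that can hybridize to several transcripts.

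SPRY1 and SPRED2 were higher in OIS alone among the 3 cultures. SPRY1, the Sprouty that restrains RET signaling in kidney development, gave 259.3 on the growing array, 782.1 on the OIS array and 217.9 on the RS array with its brighter probe set (212558_at). SPRY1 was thus 3.59-fold higher in OIS than in RS, and the difference between growing cells and RS, 1.19-fold lower in RS, was small. The dimmer SPRY1 probe set (230212_at) read 81.8, 137.0 and 39.1 in the same order. That was 1.67-fold higher in OIS than in growing cells and, with RS below the floor, at least 1.80-fold lower in RS. The probe sets thus had the same order of the arrays and differed in the size of both steps. Log2 ratios over growing cells were 1.59 and 0.74 in OIS. In RS the brighter gave -0.25 and the dimmer -0.85 or lower, which is not small against the probe SD of 0.33.

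SPRED2, a membrane-bound inhibitor of Ras to ERK signaling, gave 1017 in the growing culture, 2265 in OIS and 1022 in RS (212458_at). The growing and RS values were nearly equal, at a log2 ratio of 0.01, and OIS was 2.22-fold above RS. The other SPRED2 probe sets were below the floor on all 3 arrays, at 5.2, 17.6 and 10.5 (212466_at) and at 0.6, 1.1 and 0.6 (214026_s_at), and values below the floor have no order. The 2-fold calls of SPRED2 therefore rest on 1 of its 3 probe sets. With the median of all 3 its log2 ratio was 0.00 in both comparisons of OIS. The probe sets below the floor fixed that value, so it is no check on 212458_at. Without that call 3 of 6 members remained at least 2-fold higher in OIS than in growing cells.

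SPRED1 and SPRED3 stayed under 2-fold in every comparison. SPRED1, whose loss in people causes Legius syndrome, a disorder of the Ras pathway, had 3 probe sets above the floor on all arrays. The brightest (226837_at) read 3275 on the growing array, 4640 on the OIS array and 3811 on the RS array, the next (235074_at) 685.1, 1109 and 762.3, and the dimmest (244439_at) 73.8, 145.5 and 109.8. All 3 placed OIS highest and growing cells lowest, with OIS 1.42-fold, 1.62-fold and 1.97-fold above growing cells, and none reached 2-fold. For the brightest, the gaps between RS and each neighbour were small, at log2 values of 0.28 and 0.22. The gap between OIS and RS was past the SD of 0.37 in the others, at 0.54 for 235074_at and 0.41 for 244439_at. That between RS and growing cells was small for 235074_at, at 0.15, and not for 244439_at, at 0.57. SPRED3, the family member that lacks a working KIT-binding domain, read 107.3 in the growing culture, 119.9 in OIS and 149.4 in RS (230046_at). It was the 1 member highest in RS, at 1.39-fold over growing cells, and the gaps between neighbouring arrays in its order were small.

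**Figure D2:**
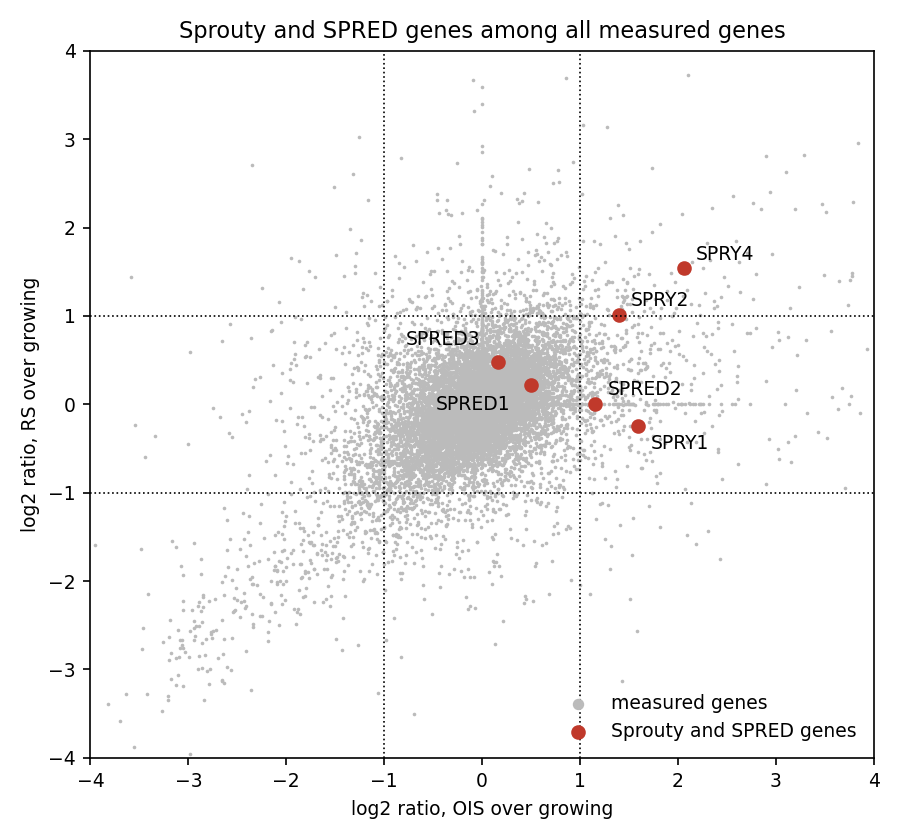
Log2 ratio of OIS over growing cells (horizontal) against RS over growing cells (vertical) for measured genes in grey and the 6 Sprouty and SPRED genes in red, 1 probe set per gene, with dotted lines at 2-fold; 39 of 13466 genes lie outside the axes. SPRY2 and SPRY4 lie past 2-fold on both axes, SPRY1 and SPRED2 on the OIS axis alone and SPRED1 and SPRED3 on neither, and both axes share the growing array.

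The senescent cultures were also compared directly, on the same OIS and RS arrays. SPRY1 and SPRED2 were at least 2-fold higher in OIS than in RS, 2 of 6 members, with 0 lower, where 5.48% of measured genes were at least 2-fold higher and 5.27% lower. Their log2 ratios of 1.84 and 1.15 were above 98.3% and 95.8% of measured genes. Counted by probe set, 9 of 11 exceeded the floor on 1 or more arrays. Of these 9, 4 were at least 2-fold higher in OIS than in growing cells, 2 in RS than in growing cells and 3 in OIS than in RS. Of all 25698 probe sets above the floor in this way, the shares at least 2-fold higher in the same comparisons were 4.38%, 3.26% and 4.96%. The members' count between OIS and RS includes the dimmer SPRY1 probe set at a ratio of at least 3.01-fold. All 9 had a log2 ratio above 0 for OIS over growing cells, as did 45.1% of all those probe sets, and several of the 9 share a gene. The Sprouty genes had a median log2 ratio of 1.59 for OIS and 1.01 for RS over growing cells, and the SPRED genes of 0.50 and 0.22.

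Some measured genes lay close to each member in the pair of ratios over growing cells, taken over 11295 genes above the floor on all 3 arrays. With 3 arrays such likeness is a description of 3 values. Nearest to SPRY4 were TNFRSF21, death receptor 6, and RARA, a retinoic acid receptor, at log2 distances of 0.06 and 0.07. Nearest to SPRY2 were MARS2, a mitochondrial methionyl-tRNA synthetase, at 0.04, and NPC1, which exports cholesterol from lysosomes, at 0.06. SPRY1 had ZC3H12C, a zinc finger protein, at 0.08 and FAM171B at 0.13. SPRED2 had DHX32, an RNA helicase family protein, at 0.03 and EDEM1, a factor of ER-associated protein degradation, at 0.04. The patterns of SPRED1 and SPRED3 were common. SPRED1 had 153 genes within 0.1, the nearest HSD11B1L and the ubiquitin-conjugating enzyme CDC34, and SPRED3 had 109, the nearest MTCH1, a mitochondrial outer membrane protein, and the SNARE protein YKT6. The 4 members past 2-fold in OIS had few near genes, with 6 within 0.1 of SPRY2, 6 of SPRED2, 2 of SPRY4 and 1 of SPRY1. Genes with large ratios are few, so these counts follow from the same ratios as the 2-fold calls and add nothing to them.

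The rest of the Ras to ERK pathway was described from 8 lists of 80 genes, of which 69 were measured. Past 2-fold in OIS over growing cells were 8 of the 69 upward and 6 downward. In RS 3 were higher and 5 lower. The background shares are those given for the members.

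Upstream of the inhibitors, receptors and adaptors were counted by 1 probe set per gene. Of 11 growth factor receptors, 0 passed 2-fold upward in OIS and 3 downward, with a median log2 ratio of -0.10. FGFR2, a fibroblast growth factor receptor, had the highest ratio, 1.80-fold higher at signals of 51.7 and 93.3. MET, the receptor of hepatocyte growth factor, had the lowest, at 2146 in growing cells and 272.2 in OIS, 7.89-fold lower, and read 3223 in RS. The other MET probe sets were dim. Probe set 211599_x_at read 66.8 in growing cells and 67.7 in OIS, a log2 ratio of 0.02. Probe set 213807_x_at was below the floor on both arrays, at 28.4 and 21.7, and so gives no ratio between them. ERBB2, counted among the lower at a log2 ratio of -1.02, had another probe set near the floor, at 51.5 and 46.1. For EGFR the probe set counted gave 0.43, and the brighter of the others (201983_s_at and 201984_s_at) gave 0.25 and 0.35. The dim ones ranged from -0.62, with OIS below the floor, to 1.14. Of 12 measured adaptors between receptors and Ras, 0 passed 2-fold in either direction in OIS or in RS. The ubiquitin ligase CBLB was 1.78-fold higher and the docking protein GAB1 1.98-fold lower in OIS.

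In the core cascade, 6 of 11 genes had a usable probe set, and the others are not analysed here. In OIS 0 of the 6 passed 2-fold, with MAP2K1, which encodes MEK1, 1.59-fold higher and the scaffold KSR1 1.51-fold lower. The HRAS probe set, which bears on the Ras construct only if that carries HRAS sequence matching the probes, read 7696 on the growing array, 11748 on the OIS array and 2553 on the RS array. HRAS was thus 3.01-fold lower in RS than in growing cells and 4.60-fold higher in OIS than in RS, the sole core gene past 2-fold in those comparisons. Whether this signal comes from the construct or from the cell's own gene cannot be told apart, and its part in the levels of the members was not tested. Of 6 measured Ras GTPase-activating and scaffold inhibitors, 0 were higher and 1 lower in OIS. RASAL1, a Ras GTPase-activating protein, was at least 2.36-fold lower, and its relative RASA3 was 1.03-fold lower. NF1, the gene of neurofibromin, is named as the SPRED1 partner and not by its rank. The probe set that stood for it was below the floor on all 3 arrays, which does not show that its mRNA was absent.

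Other feedback genes and outputs of ERK included several past 2-fold in OIS. Of 9 MAP kinase phosphatases, most of which act on ERK, 3 were past 2-fold upward in OIS and 0 downward, with a median log2 ratio of 0.80, and 2 were higher in RS, with a median of 0.33. DUSP4, a nuclear ERK phosphatase, read 48.5 in the growing culture, 1445 in OIS and 236.4 in RS. DUSP10, which acts on p38 and JNK, was 1.44-fold lower in OIS and 1.69-fold higher in RS. Named after their values were seen, DUSP2 and DUSP6 were the other two higher in OIS, at least 2.74-fold and 4.04-fold, and DUSP1, at 3.24-fold, the other one higher in RS. Among 7 other receptor feedback inhibitors 1 was higher and 1 lower in OIS, and 1 was higher and 3 lower in RS. ERRFI1, an inhibitor of the EGF receptor, read 3472 on the growing array, 7914 on the OIS array and 10132 on the RS array. LRIG3, a transmembrane regulator of receptors, read 618.6, 231.2 and 157.6.

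Of 10 ERK-responsive output genes 4 were at least 2-fold higher and 1 lower in OIS, with a median log2 ratio of 0.52, and 0 passed 2-fold in RS, with a median of 0.06. The early response gene IER3 read 5885 in the growing culture, 30045 in OIS and 4979 in RS. FOSL1, an AP-1 subunit, read 680.3, 311.5 and 695.0. Named after their values were seen, the others higher in OIS were EGR1 at 3.40-fold, ETV4 at 2.56-fold and PHLDA1 at 2.03-fold. The 8 partners that bind Sprouty proteins or control their turnover had a median of 0.01 in OIS and in RS, and 0 of the 8 passed 2-fold in either comparison. MKNK2, a kinase whose family phosphorylates SPRY2, was 1.46-fold higher in OIS, and the ubiquitin ligase NEDD4 was 1.56-fold lower.

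**Figure D3:**
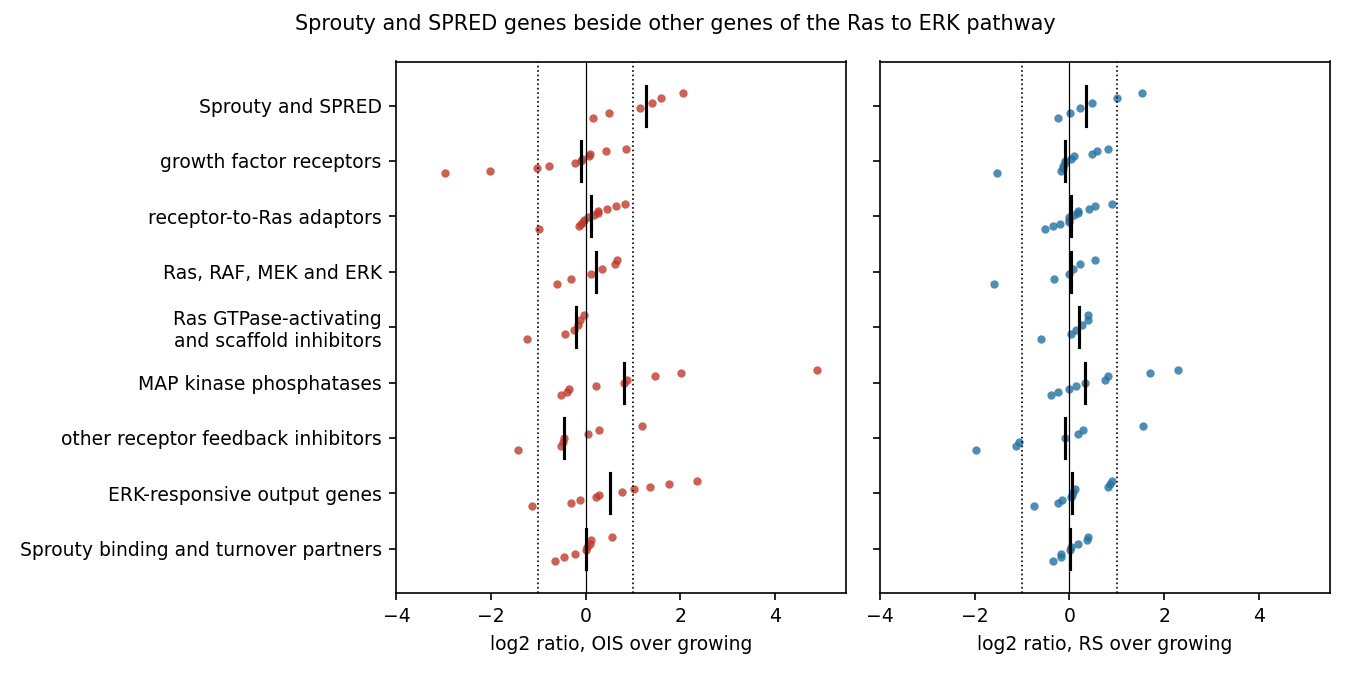
Log2 ratio over growing cells in OIS (left, red) and RS (right, blue) for the measured genes of the Sprouty and SPRED family and of 8 pathway lists, 1 point per gene with the list median as a black bar and dotted lines at 2-fold. The Sprouty and SPRED median is 1.27 in OIS and 0.35 in RS, and that of ERK-responsive output genes is 0.52 and 0.06.

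The cultures were checked for cell type and state. All 10 fibroblast markers were above the floor on each array, with a summed signal from 163288 to 172374. Of 7 epithelial markers 4 to 5 were above it, with sums of 3433 on the growing array, 3265 on the OIS array and 6538 on the RS array, and CDH1 and KRT5 were below it on all arrays. KRT18 made up most of these sums. Of the 5 measured, 2 were at least 2-fold higher in RS than in growing cells, KRT18 at 2.01-fold and KRT8 at 2.20-fold, and 0 lower. In OIS 0 were higher and 1 lower, EPCAM at 3.20-fold. Of 6 endothelial markers 4 were above the floor on each array, with sums of 1485, 2132 and 2248, while CDH5 and CLDN5 were below it. Of these 4, 3 were at least 2-fold higher in OIS than in growing cells, and 0 in RS. In OIS VWF was 2.19-fold, PECAM1 2.76-fold and ROBO4 5.47-fold higher. VWF and PECAM1 were near the floor in growing cells, at 59.7 and 49.0, and read 130.5 and 135.0 in OIS. ROBO4 read 105.3 in growing cells and 576.4 in OIS. TEK, which made up most of the sums, was 1.02-fold higher in OIS. The median log2 ratio of the 4 in OIS was 1.30, beside 1.27 for the Sprouty and SPRED genes. The other probe sets of ROBO4 and PECAM1 were dim and also higher in OIS. That of ROBO4 (220758_s_at) read 64.1 in growing cells and 77.6 in OIS, a log2 ratio of 0.28. For PECAM1, 1559921_at read 48.9 and 59.3, and 208981_at read 5.9, below the floor, and 53.3, a log2 ratio of at least 0.23. Of 5 blood cell markers 1 to 2 were above the floor, with sums from 311.3 to 380.7, and PTPRC and LYZ were below it. The part of the markers that differ between arrays in the member values was not tested. The 6 markers of senescence were uneven between the cultures. MKI67, a marker of proliferation, was 5.69-fold lower in OIS and 4.21-fold lower in RS than in growing cells, and LMNB1, which encodes lamin B1, 9.25-fold and 10.1-fold lower. CDKN2A, the locus of the inhibitor p16, was 2.40-fold and 2.58-fold higher. The inhibitor genes CDKN1A and CDKN2B and the cytokine IL6 were 2.60-fold, 9.93-fold and 19.8-fold higher in OIS, and under 2-fold higher in RS, at 1.36-fold, 1.66-fold and 1.59-fold.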

How the data were processed

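RNA of 3 cultures was measured on 1 array each. The deposited values are linear intensities, 1 per probe set. Per the submitters' processing notes the authors used MAS5, a method that scales every array by its own factor, with version and settings not stated in what was used here. The 2% trimmed mean was 497 on each array, so a common shift of every gene cannot be seen. Detection calls were not used here. The platform annotation named 1 gene for 41091 probe sets, several for 1801 and none for 11721, and the first kind was used. All 11 Sprouty and SPRED probe sets matched RefSeq by gene identifier.

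Signals under the pooled median, 45.5, were set to it before taking log2. Ratios were computed between each pair of conditions. Where a gene had several probe sets, the one brightest on average in log2 terms stood for it, and 2-fold was the size counted. A fold given as "at least" has its dimmer array below the floor. Without replicates no p-value is given. Genes named were the 6 members, HRAS, the highest and lowest measured gene of each pathway list in OIS, and the 2 genes nearest each member in the pair of ratios over growing cells. Markers of cell type and state are named from their lists. Exceptions are marked in the text. The members and lists were chosen with earlier results of these data known. Steps were tested on simulated data, with known folds placed only in genes far above the floor, so recovery of folds in dimmer genes was not checked. Alternatives were quantile normalization, centred ratios, floors at the 25th and 60th percentile, a pseudocount of 16 with no floor, keeping dim genes, taking the median over a gene's probe sets, leaving out _s_at and _x_at probe sets, and a size of 3-fold. Python 3.11.15, numpy 2.4.6, pandas 2.3.3 and matplotlib 3.10.9 were used.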

Additional observations from a re-analysis of the deposited data

How the results depend on the processing

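Of 141 log2 ratios of single members under the alternatives, 138 moved by less than the SD between probe sets and 0 changed from higher to lower or back among those past 2-fold. Many of these ratios could not move. The probe set standing for each member exceeded both alternative floors on every array, its lowest signal being 107.3 for SPRED3 against a floor of 88.8. Keeping dim genes left these ratios as they were, and the medians used for centring were 0.00. The 3 exceptions arose with the median of all probe sets. There the ratio over growing cells in OIS was 1.17 for SPRY1 and 0.00 for SPRED2, and that of OIS over RS was 0.00 for SPRED2. The other SPRED2 probe sets were below the floor, which fixed its median at 0.00. With the median of all probe sets, 1 member in place of 2 was at least 2-fold different between OIS and RS. Pathway genes at least 2-fold lower then numbered 3 in place of 6 in OIS and 3 in place of 5 in RS. Without _s_at and _x_at probe sets SPRY4 had no value, so 1 member in place of 2 was past 2-fold in RS, and pathway genes lower in RS numbered 3. At 3-fold, members past the size numbered 2 in OIS over growing, 0 in RS over growing and 1 in OIS over RS. At that size pathway genes numbered 4 higher and 2 lower in OIS, 2 lower in RS, and 5 higher and 1 lower in OIS over RS, in place of 9 and 7 at 2-fold. The other 76 of 89 counts were within 1.5 times the main one. SPRY2, at log2 ratios from 1.01 to 1.02 in RS, kept its 2-fold call under every alternative run at 2-fold, by a narrow margin. Only quantile normalization and the pseudocount changed its ratio at all, since it rests on 1 probe set far above the floor. Counts over all genes depended on the floor: with it at the 25th percentile 1541 genes passed 2-fold upward in OIS, in place of 663, and 1317 in RS, in place of 501, while the member counts were the same. No paired analysis was possible because each condition had 1 array. The arrays give no measure of variation between cultures, and values near 45.5, such as the growing signal of DUSP4, bound folds loosely.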

Other observations

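A transcript that shares its locus with a member differed in the same direction. SPRY4-IT1, a noncoding RNA that lies within the SPRY4 gene in the RefSeq table, has 2 probe sets made from the same database sequence. One (1566968_at) read 24.0 in the growing culture, 339.7 in OIS and 318.3 in RS, at least 7.47-fold and at least 7.00-fold higher than in growing cells. The other (1566967_at) was below the floor on all 3 arrays, at 40.4, 37.0 and 6.0. Whether the brighter probe set reads unspliced SPRY4 RNA was not tested.

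The feedback inhibitors outside the family did not share 1 order of the cultures. ERRFI1 and DUSP1 were highest in RS, at 10132 and 10375, and DUSP4 and DUSP6 in OIS, at 1445 and 18717. IL17RD, a membrane inhibitor of FGF signaling, read 140.8 on the growing array, 103.1 on the OIS array and 64.8 on the RS array, and LRIG1, which restrains receptors of the EGF family, 2348, 1691 and 1114. The other LRIG1 probe set (238339_x_at) was dim, at 7.5, 60.3 and 40.0 in the same order, and exceeded the floor on the OIS array alone. It was higher in OIS than in growing cells, at a log2 ratio of at least 0.41, unlike the brighter probe set. Its growing and RS values, both below the floor, have no order. DUSP1, DUSP6, IL17RD and LRIG1 were chosen here after their values were seen.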
